A study of Mus musculus with 57 samples.

Results

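The 83 genes described here encode nuclear subunits of the oxidative phosphorylation machinery, the 5 enzyme complexes of the mitochondrial inner membrane. They were picked by symbol (Ndufa, Ndufb, Ndufc, Ndufs and Ndufv with a number, Sdha to Sdhd, Uqcr, Cox4 to Cox8 with a letter, and Atp5) from 24940 gene symbols, after the transcript with the highest total count had been kept for each symbol. The pattern matched 125 transcript rows, and 23 of the 83 genes had more than 1 transcript to choose from. Complex I supplied 37 genes, complex II 4, complex III 8, complex IV 18 and complex V 16. Complexes were assigned by symbol, so Ndufa4, which assembles with complex IV, and its paralog Ndufa4l2 are counted in complex I throughout. Cox7a2l, a supercomplex assembly protein, and Atp5s, a coupling factor, carry matching symbols without being catalytic subunits. The subunits encoded by mitochondrial DNA were not analysed here. Nuclear respiratory chain genes whose symbols do not match, such as Cyc1, Cycs and Ndufab1, are not among the 83 or in the counts by complex.

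Complexes I and II feed electrons from NADH and succinate into ubiquinone, complex III passes them to cytochrome c, and complex IV hands them to oxygen. Complexes I, III and IV pump protons, and complex V, the ATP synthase, makes ATP from the returning protons. In macrophages this chain is known for a switch: inflammatory activation leans on glycolysis, while tissue-resident and lipid-handling states keep respiration running.

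The 57 libraries came from mice and fell into 4 sets. The population set held C57BL/6J cells, 2 libraries in each of 6 groups. These were Kupffer cells (the resident macrophages of liver sinusoids, sorted as F4/80-Hi Tim4-Pos) on control diet (healthy Kupffer cells) or NASH diet (NASH Kupffer cells), and 4 further groups on NASH diet: recruited macrophages of the Kupffer niche (KN-RM, sorted as F4/80-Hi Tim4-Neg), CD11b-Hi Ly6C-Hi recruited macrophages (Ly6C-high), CD11b-Hi Ly6C-Lo recruited macrophages (Ly6C-low) and Ly6CHi blood monocytes. The NASH diet models nonalcoholic steatohepatitis, a fatty liver disease with inflammation. The time set held Tim4-Pos C57BL/6J Kupffer cells on control diet (week 0, n = 3) and, on NASH diet, from week 1 (n = 2), week 4 (n = 2), week 10 (n = 3), week 20 (n = 3) and week 30 (n = 4). The LXR set held KN-RM from mice of the strain label LXRaLBRb flox (titles: LXRaLXRb flox), after 20 weeks of NASH diet, with (n = 3) or without (n = 3) a Cre driven by Clec4f, a lectin gene of Kupffer cells and of macrophages that take their niche. The fourth set was whole liver after 4 weeks of CDAHFD, a choline-poor NASH diet, from mice labelled Clec4f-cre DTR positive (n = 12) or negative (n = 10). The labels give no age, and for the population set no number of weeks on diet. Livers were digested in the presence of 1 µM flavopiridol, which blocks transcription.

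Total counts over the kept transcripts ran from 12368138 to 22707564 in the population set, 10483451 to 26969505 in the time set, 2319383 to 5086239 in the LXR set and 5389955 to 9941475 in whole liver. The labels give replicate numbers only, so p-values measure the spread between these libraries, which may be technical. Kupffer cell marker genes summed to 25544 to 44687 CPM (counts scaled to library size) in the Kupffer cell groups of the population set and to 7.24 to 9.67 CPM in blood monocytes, where Timd4 and Marco were at 0. In the LXR set the floxed genes were not lower in the libraries labelled Cre positive. Nr1h3 (LXR alpha) stood at 187, 299 and 451 CPM there against 247, 282 and 307 CPM, and Nr1h2 (LXR beta) at 61.1, 64.5 and 82.5 CPM against 33.3, 36.6 and 51.1 CPM. A count over all exons does not show whether a floxed exon was lost. Timd4, the surface protein that the sort selected against, was at 17.2, 94.3 and 304 CPM in Cre-positive libraries and at 3.52, 5.71 and 16.4 CPM in Cre-negative libraries.

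The promoters of 4 genes are printed. Uqcr11, Ndufs6 and Atp5k, of complexes III, I and V, had some of the largest falls in Ly6C-low macrophages, against KN-RM or Ly6C-high. Ndufa5 and Ndufa1, also among the largest falls in 1 of these comparisons, are not printed. Sdha, of complex II, was not called lower in either. Each line is the 250 bases before the RefSeq transcription start, 5′ to 3′ on the gene's strand, and capitals mark a motif match. The windows are chr10:80406822-80407071 for Uqcr11, chr13:73328483-73328732 for Ndufs6, chr5:108434400-108434649 for Atp5k and chr13:74350241-74350490 for Sdha, all on the minus strand of GRCm38.p6. In the coordinates of the count table (mm10) the transcripts lie at chr10:80402997-80406821 (Uqcr11), chr13:73319876-73328482 (Ndufs6), chr5:108433246-108434399 (Atp5k) and chr13:74322255-74350240 (Sdha).
Uqcr11: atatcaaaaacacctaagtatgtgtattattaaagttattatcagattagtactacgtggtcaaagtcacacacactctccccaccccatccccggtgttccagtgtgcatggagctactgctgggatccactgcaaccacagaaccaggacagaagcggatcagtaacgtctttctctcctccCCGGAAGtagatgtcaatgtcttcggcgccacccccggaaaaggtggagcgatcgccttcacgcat
Ndufs6: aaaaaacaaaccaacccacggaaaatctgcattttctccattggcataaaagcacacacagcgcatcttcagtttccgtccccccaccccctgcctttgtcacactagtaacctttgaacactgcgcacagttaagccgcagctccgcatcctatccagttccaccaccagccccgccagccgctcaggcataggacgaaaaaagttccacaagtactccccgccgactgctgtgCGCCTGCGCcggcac
Atp5k: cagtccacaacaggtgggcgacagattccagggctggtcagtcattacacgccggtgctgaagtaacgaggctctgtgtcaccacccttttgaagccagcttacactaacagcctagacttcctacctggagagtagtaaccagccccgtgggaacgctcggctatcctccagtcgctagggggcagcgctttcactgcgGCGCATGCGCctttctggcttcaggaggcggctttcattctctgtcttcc
Sdha: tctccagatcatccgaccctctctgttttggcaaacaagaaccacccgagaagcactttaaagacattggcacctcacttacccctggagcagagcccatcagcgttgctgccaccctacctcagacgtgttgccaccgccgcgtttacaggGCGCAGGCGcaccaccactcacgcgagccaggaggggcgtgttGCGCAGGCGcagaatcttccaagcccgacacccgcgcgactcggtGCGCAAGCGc
The motifs searched, on both strands, were those of NRF1 (GCGCANGCG), a known activator of respiratory genes, ETS factors (CCGGAAG), YY1 (AANATGGCG), ERR receptors (TCAAGGTCA) and SP factors (GGGCGGG). The 2 matches in Atp5k, one on each strand, overlap each other. RefSeq promoters of the same build, here 250 bases before to 50 after the start, were matched for 66 of the 83 genes and for 18063 genes in all. The NRF1 motif stood in 19 of the 66 (28.8%) and in 8.89% of all promoters. The ETS motif stood in 15 (22.7%, against 12% of all), the YY1 motif in 8 (12.1%, against 3.34%), the ERR motif in 2 (3.03%, against 0.327%) and the SP motif in 22 (33.3%, against 34.3%). Sdha held 3 NRF1 matches, ending 1, 46 and 89 bases before the start. The match in Ndufs6 ended 6 bases before the start, that in Atp5k 40 bases before it, and that in Uqcr11 crosses the start and is therefore not capitalised above. A match describes these letters and not a bound site.

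**Figure D1:**
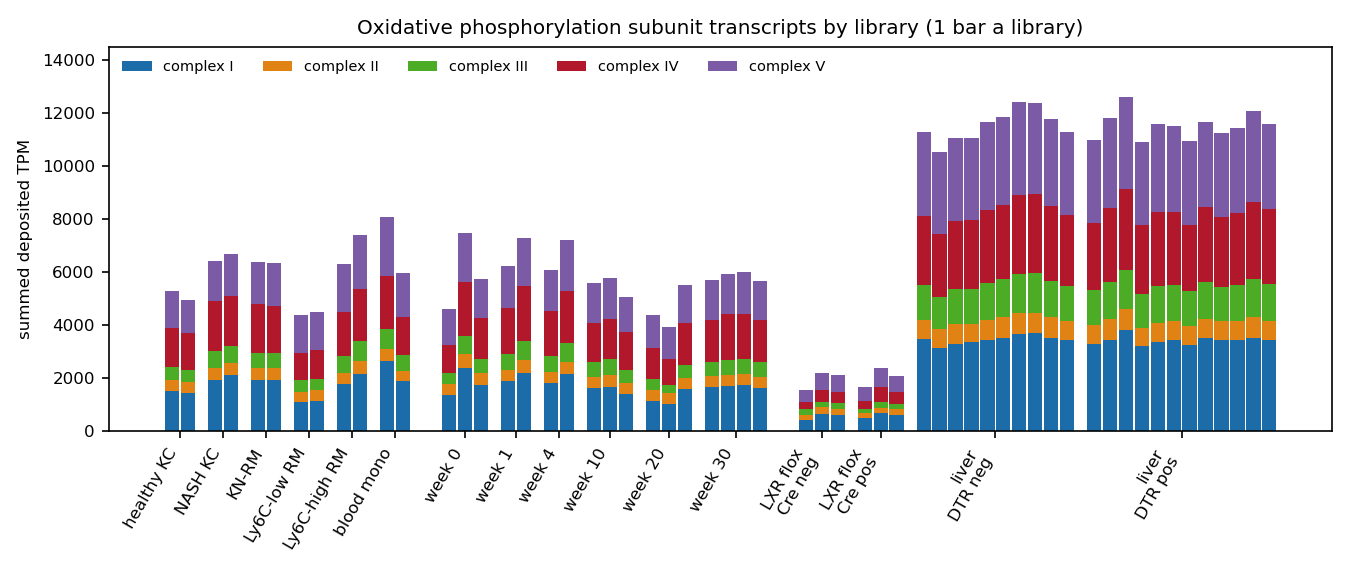
Summed deposited TPM of the 83 subunit genes, 1 stacked bar a library, split by complex, with the groups along the horizontal axis. Ly6C-low bars reach 4390 and 4488, below those of every other group of the population set. Bars of different sets are not compared.

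Within the 29 libraries of sorted C57BL/6J cells, levels per length (TPM, which divides counts by transcript length) spanned the whole range from abundant to undetected. By median over these libraries, 18 genes stood at 100 TPM or more, 49 at 10 to 100, 8 at 1 to 10 and 8 under 1 TPM. The highest medians were those of Atp5b, the catalytic beta subunit of ATP synthase (372 TPM), Cox4i1 (312 TPM), Cox5a (289 TPM) and Cox8a (284 TPM), all 3 nuclear subunits of complex IV, and Atp5a1, the alpha subunit of ATP synthase (279 TPM). In complex I, Ndufv1, which binds NADH, had a median of 49.6 TPM and Ndufs1, the largest iron-sulfur subunit, 24.5 TPM. Complex I holds Ndufv1 and Ndufs1 in equal number, and the levels of their kept transcripts differed. These are 1596 bases long (1 of 1 transcript) and 2905 bases long (1 of 4). The part of length or transcript choice in this difference was not tested. In complex IV, Cox4i1, Cox5a and Cox8a had the 3 highest medians, between 284 and 312 TPM. Other subunits of that complex lay lower, such as Cox6b1 (184 TPM), Cox7a2 (66.5 TPM) and Cox7b (47.0 TPM).

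Tissue isoforms were mostly of one kind. Cox4i1, Cox6a1, Cox6b1, Cox7a2 and Cox8a, the isoforms of most tissues, had medians of 312, 239, 184, 66.5 and 284 TPM. Their partners were low: Cox6a2, the heart and muscle form, 4.28 TPM, Cox6b2, the testis form, 1.75 TPM, Cox7a1, another muscle form, 1.31 TPM, and Cox4i2, the lung form, 0.252 TPM. Cox8c was listed at 0 in every one of the 29 libraries and Cox8b reached at most 0.224 TPM. Ndufa4, which assembles with complex IV, had a median of 115 TPM and its paralog Ndufa4l2 0.27 TPM. Of the 3 genes for the same c-ring subunit of ATP synthase, Atp5g3 had a median of 155 TPM, Atp5g1 1.72 TPM and Atp5g2 0.165 TPM. Only 12.6% of the 50-base words of Atp5g2, 34% of those of Atp5g1 and 15.2% of those of Atp5l are found in no other annotated gene, so reads of these genes can fit copies elsewhere and their levels are uncertain. Whether counting used the strand is not given in the sources used here, so reads of overlapping antisense genes cannot be told apart. Other genes under 80% unique that are named below are Cox7c (47%), Uqcrb (56.6%), Ndufb4 (63%), Cox5a (68%) and Cox5b (74.1%).

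Summed over all members, healthy Kupffer cells held 5282 and 4940 TPM, NASH Kupffer cells 6442 and 6706, KN-RM 6393 and 6363, Ly6C-low 4390 and 4488, Ly6C-high 6305 and 7400, and blood monocytes 8092 and 5984. NASH Kupffer cells and KN-RM both lay above healthy Kupffer cells, Ly6C-low lay below every other group, and the blood libraries lay apart from each other. Transcripts under 1000 bases that are no members were likewise low in Ly6C-low and healthy Kupffer cells and higher in the other groups: they took 2.65% and 3.05% of counts in healthy Kupffer cells, 3.63% and 3.66% in NASH Kupffer cells, 3.6% and 3.63% in KN-RM, 2.60% and 2.68% in Ly6C-low, 3.45% and 3.83% in Ly6C-high and 4.38% and 3.59% in blood. The part of RNA length or quality in the members' differences was not tested beyond the length and GC offsets given below. The 83 transcripts are short, with a median of 685 bases against 2126 for all genes, and 58 of them are under 1000 bases against 22.8% of all genes. Their median GC content was 51.7%, against 49.3% for all genes, over the 81 members with a sequence.

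In NASH against healthy Kupffer cells, subunit transcripts were mostly higher. The comparison asks how the diet changes resident macrophages. Uqcr11, a small subunit of complex III, was at 12.2 and 8.36 CPM in healthy and at 27.6 and 29.5 CPM in NASH Kupffer cells. Ndufs6, an accessory subunit of complex I, was at 6.82 and 7.98 CPM in healthy and 18.4 and 21.9 CPM in NASH cells. Both genes were higher in both NASH libraries than in either healthy library. The rises were 1.47 ± 0.32 (SE) on the log2 scale for Uqcr11 (adjusted p = 0.0103) and 1.45 ± 0.30 for Ndufs6 (adjusted p = 0.00779). The Ndufs6 transcript kept here and in the other comparisons is a RefSeq non-coding form, 1 of 2 transcripts of the gene. Atp5e, the epsilon subunit of ATP synthase, went from 22.5 and 18.9 CPM to 54.8 and 55.2 CPM and rose by 1.40 ± 0.25 (adjusted p = 0.00337). Cox4i1 went from 140 and 148 CPM to 275 and 314 CPM and rose by 1.03 ± 0.18 (adjusted p = 0.00352).

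Of the 75 members that passed the filter on low counts, 32 were called higher and 1 lower at an adjusted p under 0.05, with a median log2 change of 0.59. Over all 14407 genes tested, 11.2% were called higher and 9.56% lower, with a median of 0.00. The 8 members not tested were Atp5g2, Cox4i2, Cox7a1, Cox7b2, Cox7c, Cox8b, Cox8c and Ndufa4l2. Complex I had 16 of 36 called higher, complex II 1 of 4, complex III 4 of 8, complex IV 7 of 12 with 1 lower, and complex V 4 of 15. The larger catalytic subunits differed less: Sdha, the flavoprotein of complex II, was at 231 and 241 CPM in healthy and 217 and 250 CPM in NASH cells (log2 -0.01 ± 0.12). Atp5b was at 543 and 482 against 563 and 671 CPM (0.27 ± 0.13, adjusted p = 0.162). Uqcrc1, a core protein of complex III, passed the test at 0.53 ± 0.13 (adjusted p = 0.0197). Leaving out a library changed the number called: 18 without healthy replicate 1, 6 without healthy replicate 2, 18 without NASH replicate 1 and 5 without NASH replicate 2, against 33 with all.

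**Figure D2:**
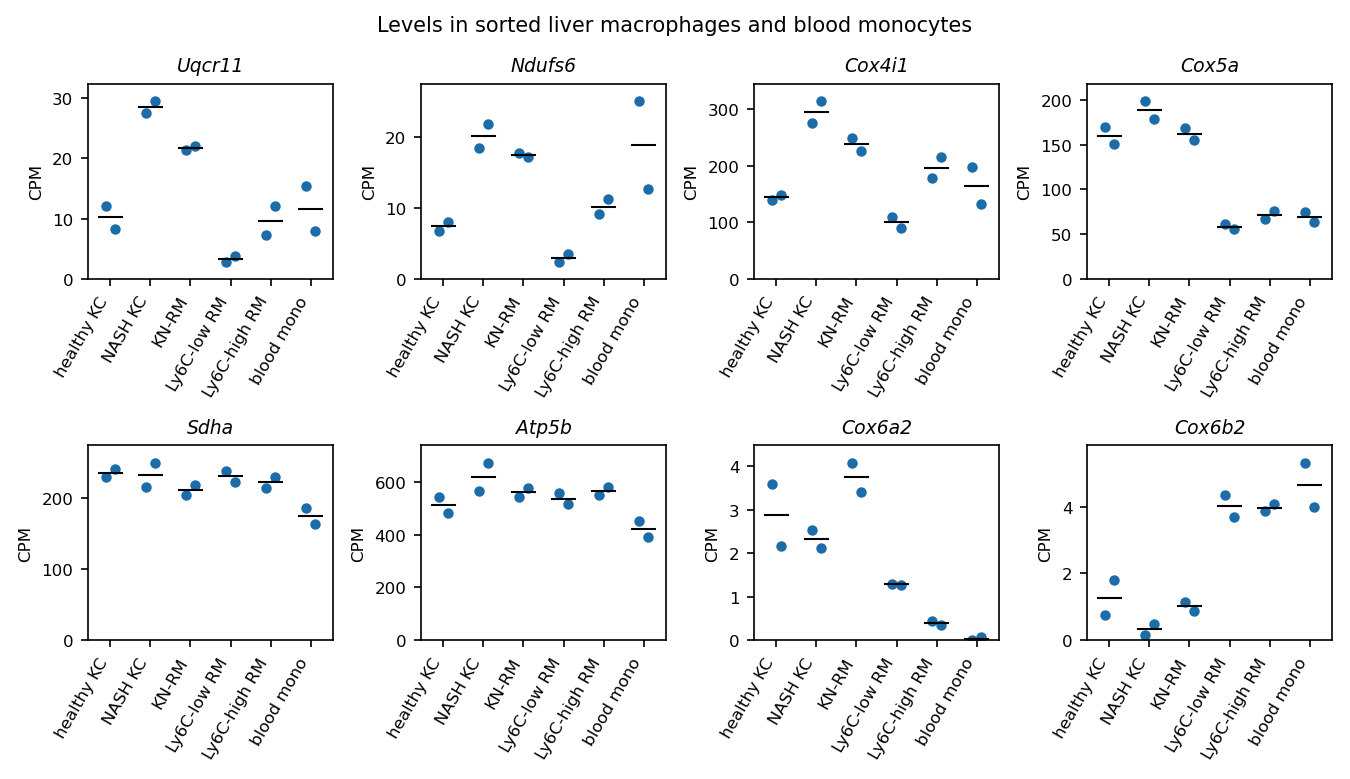
CPM in each library (points) and the mean of each group (bar) for 8 subunit genes in the 6 groups of the population set. Uqcr11, Ndufs6 and Cox4i1 are high in NASH Kupffer cells and KN-RM and low in Ly6C-low cells, while Sdha and Atp5b lie within a narrow band across the 5 liver groups.

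Transcript length moved with this result. The 50 tested members under 1000 bases held 27 of the 32 higher calls and had a median of 0.73, and the 25 longer members held 5, with a median of 0.29. Other genes under 1000 bases had a median of 0.39 and longer genes one of -0.03. Spearman's rank correlation between length and change was -0.57 over the 75 members and -0.21 over other genes. These values share the same libraries and are a description. With an offset for each library that removes the trend of counts on length, 10 members were called higher and 1 lower, with a median of 0.21. That is 13.3% of members higher against 9.09% of all genes under the same offset, where the fit without it had 42.7% against 11.2%. With an offset on GC content and length, 11 were higher and 1 lower. Cox4i1, Ndufs6, Uqcr11 and Atp5e are 662, 563, 431 and 409 bases long.

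Other gene lists, mitochondrial or not, differed in how far they moved with the subunits. Their counts and medians come from the fit without the length offset. The part of transcript length in the differences between lists was not tested. Of 76 mitochondrial ribosomal protein genes tested, 20 were higher and 0 lower (median 0.43). Of 47 assembly factor genes, 6 were higher and 1 lower (median 0.38), among them Pet100, needed to build complex IV, at 1.41 ± 0.25. Tricarboxylic acid cycle genes had 1 higher and 1 lower of 16 (median 0.02), and fatty acid oxidation genes 3 higher and 2 lower of 16 (median 0.04). Glycolysis genes had 6 higher and 1 lower of 19 (median 0.52), with Ldha at 1.11 ± 0.17 and Pkm at 1.07 ± 0.14. Cytosolic ribosomal protein genes, also short, had 36 higher and 4 lower of 83 (median 0.60). Hepatocyte markers summed to 666 to 1018 CPM in healthy and 133 to 425 CPM in NASH Kupffer cells, with none of 12 at 0, and their part in the result was not tested. In such bulk samples, fewer cells of a type and less RNA per cell cannot be told apart.

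KN-RM and NASH Kupffer cells, both F4/80-Hi and told apart in the sort by Tim4, showed no subunit difference past the threshold. None of 75 members was called by edgeR's quasi-likelihood test, and 4 had an unadjusted p under 0.05, while DESeq2 called 0 with 5 unadjusted. Over all genes 0.333% were called higher and 0.201% lower. The median over the members was -0.10. Uqcr11 was at 21.3 and 22.1 CPM in KN-RM against 27.6 and 29.5 CPM, and Cox4i1 at 249 and 225 CPM against 275 and 314 CPM. Both KN-RM libraries lay below both Kupffer cell libraries for these genes, and the differences were smaller than the test could separate (Cox4i1 log2 -0.31 ± 0.18, adjusted p = 0.702). Scaling to total counts moved the median of all genes by 0.13 and that of the members to 0.01.

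Ly6C-low macrophages held less subunit RNA than KN-RM across all 5 complexes. Uqcr11 was at 21.3 and 22.1 CPM in KN-RM and at 2.80 and 3.81 CPM in Ly6C-low cells. Ndufs6 was at 17.7 and 17.3 CPM against 2.44 and 3.55 CPM. Cox5a, which with Cox4 docks on the catalytic core of complex IV, was at 168 and 156 CPM against 61.0 and 56.0 CPM. In each case both Ly6C-low libraries lay well under both KN-RM libraries. On the log2 scale Uqcr11 fell by 2.73 ± 0.35 (adjusted p = 0.000172), Ndufs6 fell by 2.56 ± 0.32 (adjusted p = 0.00014) and Cox5a fell by 1.47 ± 0.13 (adjusted p = 1.4e-05).

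Of the 75 members, 56 were called lower and 1 higher, with a median of -1.11. The same test called 18.1% of all genes lower and 15.3% higher. In complex I, 29 of 36 were lower, among them Ndufa5 (-2.62 ± 0.38) and Ndufa1 (-2.35 ± 0.26), both small accessory subunits. The catalytic subunits Ndufv1 (-0.38 ± 0.15) and Ndufs1 (-0.07 ± 0.10) did not pass. In complex II, 3 of 4 were lower, and Sdhb, the iron-sulfur subunit, fell by 0.83 ± 0.15, from 107 and 104 CPM to 56.7 and 61.6 CPM. Sdha was the exception in complex II, at 205 and 219 CPM in KN-RM and 238 and 223 CPM in Ly6C-low cells (0.12 ± 0.12, adjusted p = 0.451). In complex III, 5 of 8 were lower, but Uqcrfs1, the Rieske iron-sulfur protein, was at 71.7 and 74.0 against 66.4 and 73.4 CPM (-0.06 ± 0.12).

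In complex IV, 11 of 12 tested members were lower. Cox4i1 fell by 1.25 ± 0.18, to 109 and 90.3 CPM, Cox8a fell by 1.05 ± 0.16, to 69.9 and 81.1 CPM, and Cox6b1 fell by 1.04 ± 0.15, to 38.5 CPM in both libraries. In complex V, 8 of 15 were lower, led by Atp5k, the e subunit of the membrane part (-2.40 ± 0.37), from 11.8 and 11.1 CPM to 1.91 and 2.48 CPM. The alpha and beta subunits that carry the catalytic sites did not change past the test: Atp5a1 -0.02 ± 0.12 and Atp5b -0.06 ± 0.13. Atp5b read 543 and 575 CPM in KN-RM and 556 and 515 CPM in Ly6C-low cells, so the groups overlapped. Leaving out a library left 46 to 52 calls.

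**Figure D3:**
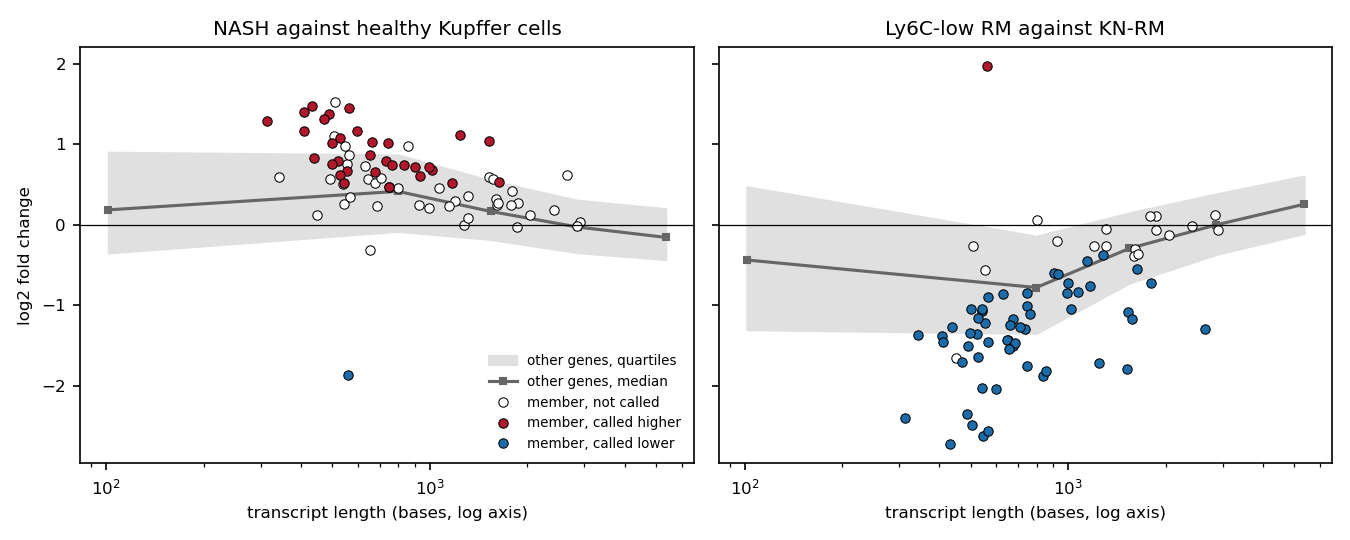
Log2 fold change of each tested subunit gene against its transcript length (log axis), for NASH against healthy Kupffer cells (left) and Ly6C-low against KN-RM (right). Filled points passed the test, and the grey line and band give the median and quartiles of other genes by length. Apart from Cox6b2, short members lie farthest from 0 in both panels, on opposite sides, and other short genes lean the same way by less. Cox6b2, also short, lies on the other side from most of them in each panel.

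Length moved with this result too. Members under 1000 bases had 44 lower and 1 higher of 50 (median -1.35), longer members 12 lower of 25 (median -0.37), and other genes under 1000 bases had a median of -0.73. The rank correlation with length was 0.62 over the members and 0.34 over other genes. With the length offset, 27 members were lower and 5 higher (median -0.38), or 36% lower against 13.3% of all genes, and with GC and length together 29 were lower and 4 higher (median -0.36). With that length offset Cox5a (685 bases) was at -0.65 ± 0.11 (adjusted p = 0.00143), Uqcr11 at -1.87 ± 0.26 (adjusted p = 0.000385) and Ndufs6 at -1.72 ± 0.25 (adjusted p = 0.000445). Cox4i1, at -0.42 ± 0.15, no longer passed (adjusted p = 0.0527). Cox7a2l changed sign, from -0.45 ± 0.11 without the offset to 0.15 with it. GC content on its own ran with the change at a rank correlation of -0.10 over 73 members, and the share of unique words at 0.09.

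The promoter motifs were also counted by call. The NRF1 motif stood in 14 of 47 promoters of members called lower (29.8%) and in 4 of 13 of members not called (30.8%), Sdha among the latter. The ETS motif stood in 14 of 47 (29.8%) and in 1 of 13 (7.69%). These shares are given as counts, without a test.

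Among the neighbouring lists, again without the length offset, 50 of 76 mitochondrial ribosomal protein genes were lower and 0 higher (median -0.80). Mrps21 was at -2.16 ± 0.35. Assembly factor genes had 19 lower and 1 higher of 47 (median -0.58): Cox17, a copper chaperone of complex IV, fell by 2.63 ± 0.39 and Pet100 fell by 2.54 ± 0.27. Tricarboxylic acid cycle genes had 1 lower and 2 higher of 16 (median 0.02), with citrate synthase, Cs, at 0.45 ± 0.10. Glycolysis genes had 1 lower and 3 higher of 19 (median -0.05), fatty acid oxidation genes 6 lower of 16 (median -0.29), cytosolic ribosomal protein genes 39 lower and 5 higher of 83 (median -0.68) and proteasome genes 19 lower of 39 (median -0.48). Of 19 known regulators of mitochondrial genes, 2 were higher and 2 lower. The 8 dendritic cell markers summed to 391 to 414 CPM in Ly6C-low cells against 54.8 to 58.5 CPM in KN-RM, none at 0. Kupffer cell markers summed to 371 to 580 CPM against 14383 to 16478 CPM, again none at 0. Their part in the subunit result was not tested.

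Ly6C-low cells also held less subunit RNA than Ly6C-high macrophages. Of 75 members, 49 were lower and 1 higher (median -0.79), while 14% of all genes were called lower and 11.6% higher. Atp5k, at 6.20 and 10.0 CPM in Ly6C-high and 1.91 and 2.48 CPM in Ly6C-low cells, fell by 1.90 ± 0.37 (adjusted p = 0.00429). Ndufa1 was at 14.7 and 22.2 against 4.27 and 6.16 CPM and fell by 1.84 ± 0.26 (adjusted p = 0.000632). The groups did not overlap for either gene. Ndufs6 fell by 1.79 ± 0.32. The core subunits Uqcrc1 and Uqcrfs1 passed at -0.56 ± 0.13 and -0.60 ± 0.12, while Sdha (0.05 ± 0.12) and Atp5b (-0.08 ± 0.13) did not. This comparison and the preceding one share the Ly6C-low libraries.

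By complex, 24 of 36 members were lower in complex I, 0 of 4 in complex II, 6 of 8 in complex III, 9 of 12 in complex IV and 10 of 15 in complex V. With the length offset the counts were 18 lower and 1 higher (median -0.31), or 24% lower against 11.3% of all genes. The number called was 21 without Ly6C-high replicate 2 and 20 without Ly6C-low replicate 1, against 50 with all. Cell cycle genes, by contrast, had 19 higher and 0 lower of 20 (median 2.23). Hepatocyte markers were at 1435 to 3911 CPM in Ly6C-high against 150 to 350 CPM in Ly6C-low cells, and fatty acid oxidation genes had 7 lower of 16 (median -0.53). Monocyte markers stood at 7123 to 7338 against 1712 to 2069 CPM. Their part in the subunit difference was not tested.

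Between Ly6C-high macrophages and blood monocytes the subunits moved in both directions. Of 75 members, 5 were higher and 23 lower (median -0.31), and of all genes 27.3% were higher and 21.3% lower. The lower ones included Uqcrb, a subunit at the quinone site of complex III, from 19.2 and 17.6 CPM in blood to 3.35 and 5.65 CPM, and Cox5b, a zinc-binding subunit of complex IV, from 34.4 and 20.8 to 7.15 and 14.4 CPM. Uqcrb fell by 2.02 ± 0.46 (adjusted p = 0.00392) and Cox5b fell by 1.36 ± 0.34 (adjusted p = 0.00656). Atp5g1, at 7.16 and 6.27 against 0.759 and 1.05 CPM, fell by 2.88 ± 0.58 (adjusted p = 0.00202), and Ndufb4 fell by 2.07 ± 0.77. All 4 genes are under 80% unique. Atp5d, the delta subunit of ATP synthase, rose by 0.82 ± 0.16 (adjusted p = 0.00153), from 138 and 96.4 to 208 and 206 CPM. Cox8a rose by 0.50 ± 0.16, Sdha by 0.35 ± 0.12 and Atp5b by 0.42 ± 0.13, and Ndufs1 fell by 0.42 ± 0.10.

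Members with under 80% unique words had 7 lower and 0 higher of 17 (median -0.68), those with more 15 lower and 5 higher of 56 (median -0.10), and other genes under 80% had a median of -0.24. The rank correlation between the unique share and the change was 0.48 over the members and 0.16 over other genes. The balance of the count turned with the length and GC offsets and without blood replicate 1. It stayed mostly lower under other scaling, at 10 higher and 17 lower with size factors from medians of ratios and 7 higher and 17 lower with total counts. It was 23 higher and 13 lower with the length offset (median 0.09) and 18 higher and 13 lower with GC and length. With the length offset 30.7% of members were higher and 17.3% lower, near the 28.1% and 22.4% of all genes. Without blood replicate 1 it was 10 higher and 8 lower, and without Ly6C-high replicate 1 it was 3 higher and 8 lower. Hepatocyte markers were at 0 to 0.0474 CPM in blood, with 11 of 12 at 0, and at 1435 to 3911 CPM in Ly6C-high cells. Erythroid and platelet markers were at 257 to 1128 CPM in blood and 9.36 to 11.1 CPM in Ly6C-high cells. Their part was not tested.

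**Figure D4:**
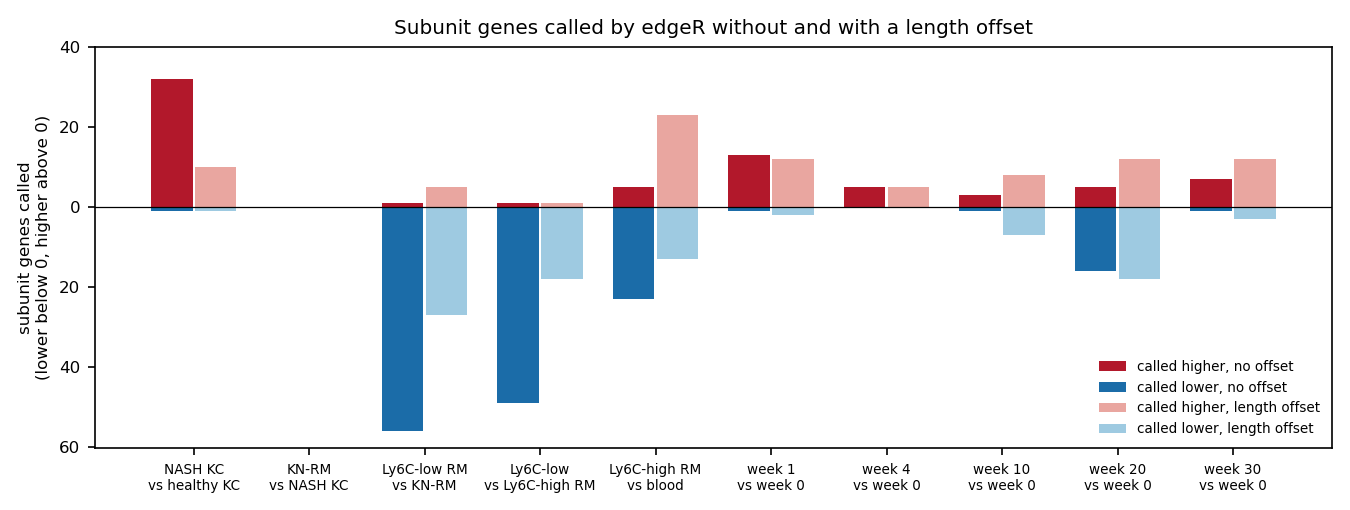
Number of subunit genes called higher (above 0) and lower (below 0) by edgeR in 10 comparisons, without (dark) and with (light) the offset for transcript length. The offset takes the lower calls from 56 to 27 in Ly6C-low against KN-RM and the higher calls from 32 to 10 in NASH against healthy Kupffer cells.

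Among the isoform pairs of complex IV, the rare forms of Cox6 differed between the cell groups. Cox6a2 was at 3.6 and 2.16 CPM in healthy and 2.53 and 2.13 CPM in NASH Kupffer cells, 4.08 and 3.41 CPM in KN-RM, 1.30 and 1.27 CPM in Ly6C-low and 0.443 and 0.350 CPM in Ly6C-high cells. Blood monocytes had 0 and 1 count of Cox6a2 and Ly6C-high cells 7 and 6 counts, a difference with an adjusted p of 0.0102. It was lower in Ly6C-low than in KN-RM (-1.54 ± 0.43, adjusted p = 0.0186) and higher than in Ly6C-high cells (1.68 ± 0.52, adjusted p = 0.034). Its level was lowest in blood and highest in the F4/80-Hi cells, whose 3 groups lay between 2.13 and 4.08 CPM.

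Cox6b2 ran the other way. It was at 0.757 and 1.79 CPM in healthy and 0.163 and 0.498 CPM in NASH Kupffer cells, 1.16 and 0.869 CPM in KN-RM, 4.35 and 3.68 CPM in Ly6C-low, 3.86 and 4.08 CPM in Ly6C-high cells and 5.31 and 3.99 CPM in blood. It was the single member called higher in Ly6C-low against KN-RM (1.97 ± 0.45, adjusted p = 0.00636) and the single one called lower in NASH against healthy Kupffer cells (-1.87 ± 0.59, adjusted p = 0.044). The common forms were far more abundant throughout: Cox6a1 stood at 48.9 to 149 CPM and Cox6b1 at 38.5 to 84.9 CPM in the same 12 libraries. Both rare forms are between 500 and 700 bases long. The Cox6b2 transcript kept here is a RefSeq non-coding form, 1 of 6 transcripts of the gene.

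Over the weeks of diet, subunit genes were called no more often than other genes at most times, and a few changed strongly. The week 0 libraries spread widely, with summed levels of 4614, 7466 and 5731 TPM, and the 5 comparisons below share them. At week 1, 13 of 76 members were higher and 1 lower (median 0.34), against 9.42% and 6.56% of all genes. At week 4, 5 were higher and 0 lower (median 0.35), against 5.55% and 2.99%. At week 10, 3 were higher and 1 lower (median -0.12), against 11.5% and 7.63%. At week 20, 5 were higher and 16 lower (median -0.32), against 18.2% and 16.6%. At week 30, 7 were higher and 1 lower (median 0.20), against 15.5% and 15%. Counting both directions, the share of members called was below that of all genes at 4 of the 5 times: 6.58% against 8.54% at week 4, 5.26% against 19.1% at week 10, 27.6% against 34.7% at week 20 and 10.5% against 30.5% at week 30. At week 1 it was 18.4% against 16%. These counts are no result about the members as a set.

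Atp5g1 was at 0.226, 0.644 and 0.694 CPM at week 0, 6.30 and 4.77 CPM at week 1, 3.72 and 5.78 CPM at week 4 and 3.10, 1.79 and 2.3 CPM at week 10. Every library of weeks 1 to 10 lay above every week 0 library, with rises of 3.41 ± 0.47, 3.20 ± 0.48 and 2.21 ± 0.44 (adjusted p = 0.00016, 0.000808 and 0.00329). At week 20 it was back at 0.571, 0.657 and 0.658 CPM, and at week 30 it stood at 1.60, 0.918, 0.805 and 1.35 CPM (1.18 ± 0.42). Cox5b was at 7.82, 10.0 and 9.42 CPM at week 0, 30 and 32.6 CPM at week 1, 31.5 and 35.4 CPM at week 4 and 24.5, 26.3 and 23.8 CPM at week 10. It rose by 1.79 ± 0.32, 1.88 ± 0.33 and 1.45 ± 0.30, and its week 20 libraries (5.84, 2.96 and 10.9 CPM) overlapped those of week 0.

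Uqcrb rose at week 1 and fell at week 20. It was at 11.5, 18.8 and 13.1 CPM at week 0, 42.2 and 34.0 CPM at week 1 (1.40 ± 0.41) and 4.76, 0.904 and 4.67 CPM at week 20 (-2.10 ± 0.40, adjusted p = 0.000971). These 3 genes are under 80% unique. Among members with more unique sequence, Cox7b, a small subunit of complex IV, rose by 1.55 ± 0.28 at week 1, from 18, 35.8 and 26.2 to 70.5 and 85.9 CPM. Cox7a2l rose by 1.06 ± 0.24 at week 1 and 1.14 ± 0.22 at week 10, and Ndufb11, which is X-linked, rose by 0.89 ± 0.23 and 0.88 ± 0.23 at weeks 1 and 4. Cox6a2 was the one member lower at week 1 (-2.56 ± 0.74) and Ndufa3 the one lower at week 10 (-0.92 ± 0.28).

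Hepatocyte markers moved with these weeks. Their 12 genes summed to 48.5 to 146 CPM at week 0, 3251 to 5222 CPM at week 1, 1643 to 1984 CPM at week 4, 581 to 2857 CPM at week 10, 150 to 866 CPM at week 20 and 242 to 913 CPM at week 30, with none at 0 in any group. In the population set, Atp5g1 was at 0.408 to 1.78 CPM in NASH Kupffer cells whose hepatocyte markers summed to 133 to 425 CPM. It stood at 6.27 and 7.16 CPM in blood monocytes with those markers at or near 0. Cytosolic ribosomal protein genes, many of them also with copies elsewhere, had 43 higher and 1 lower of 84 at week 1, 40 and 1 at week 4 and 35 and 2 at week 10. Fatty acid oxidation genes had 9, 4 and 11 of 16 higher at these weeks and 0 lower. The part of hepatocyte RNA in these results was not tested.

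**Figure D5:**
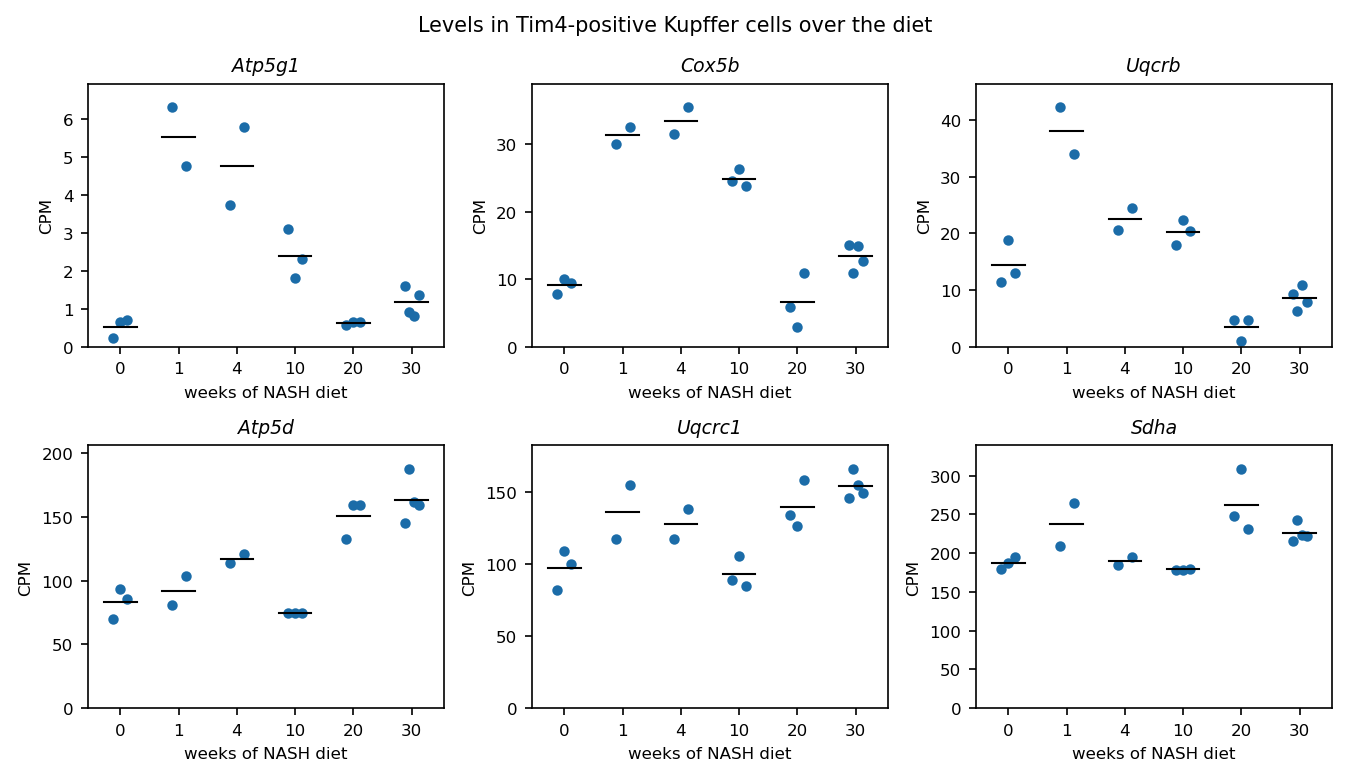
CPM in each library (points) and the mean of each week (bar) for 6 subunit genes in Kupffer cells after 0 to 30 weeks of NASH diet. Atp5g1 and Cox5b are high at weeks 1 to 10, Uqcrb is high at week 1, and all 3 are low at week 20. Atp5d and Uqcrc1 are high at weeks 20 and 30, and the 3 Sdha libraries of week 20 lie above those of week 0.

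Atp5d, Ndufv1 and Uqcrc1 were called higher at both week 20 and week 30. Atp5d was at 70.2, 93.2 and 85.4 CPM at week 0, 133, 159 and 159 CPM at week 20 and 145, 187, 162 and 159 CPM at week 30. It rose by 0.86 ± 0.13 (adjusted p = 0.000162) and 0.98 ± 0.13 (adjusted p = 3.08e-05), with no overlap between groups. Ndufs7, an iron-sulfur subunit of complex I, rose by 0.61 ± 0.20 at week 20. Ndufv1 rose by 0.56 ± 0.13 and 0.63 ± 0.12, and Uqcrc1 rose by 0.53 ± 0.14 and 0.67 ± 0.13. Earlier calls were Ndufv1 at week 1 (0.43 ± 0.14) and week 4 (0.50 ± 0.14), Uqcrc1 at week 1 (0.49 ± 0.15) and Atp5d at week 4 (0.50 ± 0.15). Sdha rose by 0.49 ± 0.12 at week 20, from 179, 187 and 196 CPM to 247, 309 and 232 CPM. Cox8a rose by 1.14 ± 0.24 and Cox4i1 by 0.87 ± 0.24 at week 30.

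The members lower at week 20 included Ndufb4 (-2.49 ± 0.55), Ndufa5 (-1.42 ± 0.43), Atp5k (-1.25 ± 0.42) and Ndufv2, a complex I subunit next to the NADH site (-1.02 ± 0.16, adjusted p = 0.000191). Ndufv2 was at 50.9, 74.9 and 57.6 CPM at week 0 and 28.9, 25.3 and 36.2 CPM at week 20, and was lower at week 30 as well (-0.42 ± 0.15). The rank correlation of the week 20 change was 0.41 with length and 0.35 with GC over the members, and 0.12 and 0.29 over other genes. At week 30 it was 0.05 and 0.49, against -0.06 and 0.31. With the length offset 12 members were higher and 18 lower at week 20, and 12 higher and 3 lower at week 30, or 39.5% and 19.7% called against 36.8% and 33% of all genes. Scaling to total counts moved the median of all genes by -0.22 at week 20 and -0.16 at week 30, where it called 2 higher and 27 lower and 6 higher and 4 lower. Total counts gave 3 higher and 3 lower at week 10.

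Single libraries moved these counts. Without week 0 replicate 2, whose summed level was the highest, week 20 had 8 higher and 7 lower and week 30 19 higher and 0 lower. Without week 0 replicate 1, the lowest, week 10 had 3 higher and 9 lower and week 20 4 higher and 29 lower. Without week 20 replicate 3, 4 were higher and 32 lower at week 20. Week 1 had 9 calls without its replicate 1 and 3 without its replicate 2, and week 4 had 2 to 8.

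Fitted as a slope on log2 weeks of diet from week 1 to 30, 1 of 77 members was higher and 14 lower per doubling (median -0.08), against 10.7% and 11.5% of all genes. Atp5g1 fell by 0.58 ± 0.10 per doubling, Uqcrb fell by 0.53 ± 0.12 and Cox5b fell by 0.37 ± 0.10, while Atp5d rose by 0.17 ± 0.06. Members under 80% unique held 8 of the 14 lower calls among 17 tested (median -0.16), and the rank correlation with the unique share was 0.51 over the members and 0.12 over other genes. The slope calls dropped from 15 to 8 without week 1 replicate 1 and 7 without week 1 replicate 2. All 12 hepatocyte markers fell with the weeks in the same fit (median -0.76), and their part in the slopes was not tested. In the same fit glycolysis genes had 1 higher and 2 lower of 19, although 10 of 19 were higher at week 20 and at week 30 against week 0. Slc2a1, the glucose transporter, was higher by 1.43 ± 0.16 and 1.24 ± 0.15 at those weeks.

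In the LXR set no subunit differed past the threshold. edgeR called none of 62 tested members, with 0 at an unadjusted p under 0.05, and DESeq2 called 0 as well. Of all genes 0.174% were called higher and 0.0348% lower in the libraries labelled Cre positive. The median over the members was 0.11. Cox4i1 was at 4.10, 23.4 and 19.2 CPM in Cre-positive and 8.81, 17.8 and 19.9 CPM in Cre-negative libraries, and Atp5b at 142, 193 and 157 against 136, 161 and 173 CPM. The groups overlapped for both, with differences of 0.03 ± 0.52 and 0.07 ± 0.19. The 21 members not tested included Uqcr11 and Ndufs6, with 0 to 4.04 CPM. Members took only 0.104% to 0.147% of counts in this set, against 0.329% to 0.551% in the other sorted cells and 0.841% to 0.985% in whole liver, so levels are not compared across sets.

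Whole liver gave the flattest comparison. Of 74 members tested, edgeR called 0 and DESeq2 0, with 1 at an unadjusted p under 0.05 in edgeR, and of all genes 0% were called higher and 0% lower. The median over the members was -0.03. Cox4i1 had a lowest, median and highest CPM of 180, 229.5 and 280.3 in DTR-positive and 197, 235 and 274 in DTR-negative livers. The ranges overlapped, and the difference was -0.03 ± 0.07. Atp5b differed by -0.01 ± 0.07 and Sdha by -0.04 ± 0.07. Clec4f, which drives the Cre and marks the targeted cells, also overlapped between the groups, at 3.37 to 140 CPM in positive and 1.37 to 118 CPM in negative livers.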

How the data were processed

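The data were 57 RNA-seq libraries in 16 groups, from sorted cells or whole liver of mice, used as deposited. The authors deposited a table of raw counts per RefSeq transcript over exons, made with HOMER per the file headers, and a second table of the same 40458 transcripts as TPM, also per the file headers. STAR, HOMER, DESeq2 and the builds mm10 and GRCm38 are named in the submitters' processing notes, with no role or version there.

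Symbols with several transcripts were reduced to the 1 with most reads over all libraries, leaving 24940 genes, and 2 rows that name no gene (1.5e-05% of counts) were left out. Some core subunit results are not reported here. The 4 sets (population, time, LXR and whole liver) were fitted separately with edgeR 4.0.16 in R 4.3.3: filterByExpr (minimum count 10, minimum total 15), TMM scaling, and the quasi-likelihood test with all groups of a set in 1 fit. P-values were adjusted over all genes tested (Benjamini-Hochberg), and a call is an adjusted p under 0.05. Fold changes are log2. Their standard errors (SE) were derived as the absolute log2 change divided by the square root of the quasi-likelihood F statistic. CPM are counts scaled to TMM library sizes. The slope used the 14 libraries of weeks 1 to 30. Total counts per library ran from 2319383 to 26969505, lowest in the LXR set.

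Alternatives were other scaling (size factors, total counts), DESeq2 1.42.0, limma 3.58.1 on log2(TPM + 1), no filter, both groups alone, a replicate block, each library left out, and offsets per library from a spline (5 degrees of freedom) on transcript length, or on GC content and length. GC content and the share of 50-base words found in 1 gene only came from annotated GRCm38 transcripts, for 81 members. The fitting scripts were tested on simulated data. No replicate pair among 140 agreed within sampling noise (chi-square per degree of freedom 5.30 to 85.7). Members and lists were chosen with earlier results of these data known. The genes named are, for each comparison, the 3 called members with the largest change in each direction, the core subunits and the isoform pairs, with up to 3 called genes of other lists. Ndufa1, Ndufa5, Ndufb11, Ndufs6, Ndufv2, Uqcr11, Uqcrb, Cox5b, Cox7b, Atp5d, Atp5k and Cs may stand outside that rule in some comparisons. They were then chosen after their values were seen.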

Additional observations from a re-analysis of the deposited data

Results flagged for a closer look

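In the groups of 4 to 10 libraries, 65 checks of a value for a library far from the others were run, and 3 were past Dixon's 95% critical value, and chance flags about 1 in 20. Uqcrfs1, the Rieske protein of complex III, was at 77.4 CPM in week 30 replicate 2, where the lowest of the 4 libraries had 63.7 CPM and the median was 65.4 CPM. Transcripts under 1000 bases took 4.01% of counts in week 30 replicate 3, against a lowest share of 3.66% and a median of 3.70%. Cox6b2 was at 4.09 CPM in DTR-negative liver replicate 7, where the 10 livers had a lowest value of 0.448 CPM and a median of 1.94 CPM.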

How the results depend on the processing

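Length and GC offsets, the scaling and single libraries moved the counts of called members, and the causes were not tested. In NASH against healthy Kupffer cells (33 calls) limma on log2(TPM + 1) gave 19, the length offset 11, the replicate block with length offset 11 and the GC and length offset 12. In Ly6C-low against KN-RM (57) these offsets gave 32, 34 and 33, and in Ly6C-low against Ly6C-high (50) they gave 19, 22 and 22. At week 1 (14 calls) total counts gave 8, limma 9 and both groups alone 6. At week 4 (5) total counts gave 2, DESeq2 8, limma 3, the replicate block with length offset 3 and both groups alone 2. At week 10 (4) the length offset gave 15, with the replicate block 15, GC and length 13 and both groups alone 2. At week 20 (21) limma gave 38, with 2 higher and 36 lower, and both groups alone 13. At week 30 (8) DESeq2 gave 14, limma 16 (6 higher, 10 lower), the length offset 15, with the replicate block 13, both groups alone 15 and GC and length 14. For the slope (15) the replicate block gave 8 and a slope on plain weeks 9.

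Leaving out 1 library gave 5 to 18 calls in NASH against healthy Kupffer cells, 46 to 52 in Ly6C-low against KN-RM, 20 to 47 in Ly6C-low against Ly6C-high, 11 to 32 in Ly6C-high against blood, 3 to 21 at week 1, 2 to 8 at week 4, 3 to 12 at week 10, 15 to 36 at week 20, 6 to 19 at week 30 and 7 to 15 for the slope. It left 0 in KN-RM against NASH Kupffer cells and in the LXR set. Groups cut to 1 library are assumed to vary like the others.

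The labels share replicate numbers only, and no comparison with 3 or more pairs had every correlation over 0.1 (with 2 pairs each, the correlation was 0.61 for KN-RM against NASH Kupffer cells, 0.53 for Ly6C-low against KN-RM, 0.47 for Ly6C-low against Ly6C-high, 0.14 for NASH against healthy, 0.19 to 0.20 at week 1, -0.01 to 0.00 at week 4 and -0.12 for Ly6C-high against blood). With the replicate block on its own the calls were 36 in NASH against healthy Kupffer cells, 57 in Ly6C-low against KN-RM, 51 in Ly6C-low against Ly6C-high and 29 in Ly6C-high against blood. Of 89 named gene results, 1094 of 1358 recomputed values kept direction and call, 260 lost the call and 4 reversed. The reversed ones were Cox7a2l in Ly6C-low against KN-RM (0.147 with the length offset, 0.146 with the block added, 0.115 with GC and length) and Ndufa4 in Ly6C-high against blood (0.136 with GC and length). The LXR set had the lowest total counts and the fewest members tested, 62.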
